A study of Gallus gallus with 14 samples.

Results

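DKO-R cells make their clathrin heavy chain from a Tet-Off transgene, which doxycycline (DOX) shuts off, and their transcriptional response to DOX was measured on 4 two-colour arrays. On each array an extract of DKO-R cells grown with DOX was hybridised against an extract of DKO-R cells of the same culture grown without it. The cultures were A and B, labelled as biological replicates, and each was hybridised on 2 arrays with Cy3 and Cy5 exchanged. The arrays hold 12856 EST clones of chicken, and the 7751 clones that gave a value on all 4 DKO-R arrays are described here. All values are log2(+DOX/-DOX) from ratios centred on the array median. A positive value means more signal with DOX, relative to that median, and a value of 1 is a 2-fold difference.

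DKO-R is a derivative of DKO-S, itself made from the chicken pre-B cell line DT40 in which the clathrin heavy-chain gene was inactivated on both alleles. Both lines live on the Tet-Off clathrin and lack the endogenous gene with and without DOX, and DKO-R is the line that tolerates loss of clathrin better than DKO-S. DKO-R is a single line. The deposited series has 14 arrays, and besides the DKO-R pairs it compares DKO-S +DOX with DKO-S -DOX, DT40 +DOX with DT40 -DOX, and DKO-R -DOX with DKO-S -DOX. The DT40 arrays are the ones used for comparison here, since DT40 keeps its own clathrin gene and receives DOX alone. The dose of DOX and the time for which it was given are not stated in the labels or the microarray methods.

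Clathrin forms the coat of vesicles that take up receptors such as the transferrin receptor at the plasma membrane and that carry lysosomal enzymes from the trans-Golgi network. The coat is recruited by adaptor complexes, AP-1 at the trans-Golgi network and endosomes and AP-2 at the plasma membrane. In a Tet-Off cell the transactivator binds its promoter only while DOX is absent. No clone annotated here is the clathrin heavy chain or the transferrin receptor, so the repression of clathrin by DOX could not be checked on these arrays.

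Each DKO-R array kept 60.9% to 72.3% of the spots of EST clones at a confidence of 0.30 or more, which gave 8773 to 10168 clones per array. Spots of the same clone on a DKO-R array differed with an SD of 0.26 to 0.40 on the log2 scale. On the DKO-S arrays 2 hybridisations kept 2.11% and 23.2% of their spots, so that only 165 of the 7751 clones could be set against DKO-S in both cultures. The differences between DKO-R and DKO-S also disagreed between sets of arrays. For 28 clones, the direct arrays of DKO-R against DKO-S gave a 2-fold or larger ratio of the same sign in both orientations. Comparisons of the lines within a dye on the DOX arrays repeat these clones and arrays, so they are not independent. Of 102 such comparisons, 93 ran the opposite way (91.2%). The arrays described here are therefore those labelled DKO-R. Whether the labels or other differences between the sets of arrays account for this was not tested.

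Across the clones, no response to DOX passed the test. Of the 6499 clones that could be tested, 0 were called at an adjusted p under 0.05 (0%), with limma on the log ratios of 7 pairs of extracts and Benjamini-Hochberg adjustment. The smallest adjusted p was 0.368, and at an unadjusted p under 0.05 there were 524 clones (8.06%), 322 of them higher with DOX (4.95%) and 202 lower (3.11%). In the same fit 0 of 6498 clones were called in DT40 cells, where 394 had an unadjusted p under 0.05 (6.06%). The standard error of a clone had a median of 0.14, and the 95% confidence interval lay within 2-fold in either direction for 6398 of the tested clones (98.4%) and within 1.5-fold for 5136 (79%). Each estimate rests on 2 cultures, and most clones had 2 residual degrees of freedom.

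The differences were small in size. The mean of the 4 DKO-R arrays ran from -0.89 to 1.00 over the 7751 clones, with 5% of them below -0.31 and 5% above 0.35, and 0 clones reached a mean of 2-fold. The same sign on all 4 arrays was found for 1124 clones (14.5%), of which 613 were higher with DOX (7.91%) and 511 lower (6.59%). In DT40 cells the same sign on all 4 arrays was found for 837 of 7828 clones (10.7%). Clones that combined the same sign with a mean of 1.5-fold or more numbered 42 in DKO-R, 38 higher (0.49% of the clones measured) and 4 lower (0.0516%), and 17 in DT40, 11 higher and 6 lower.

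**Figure D1:**
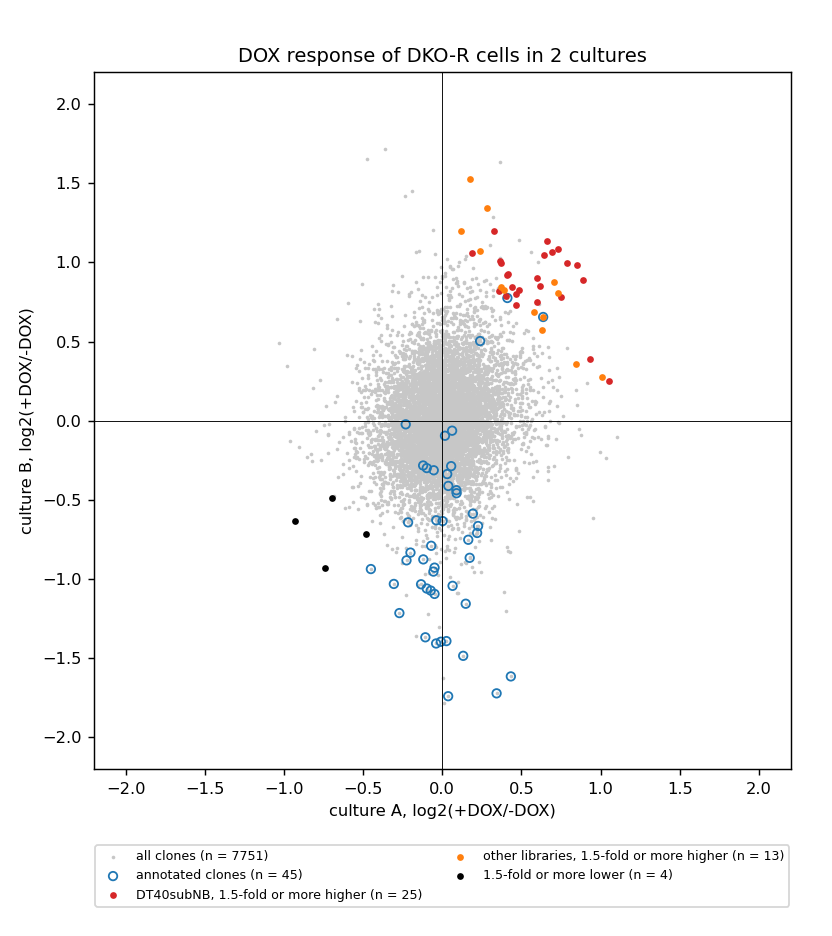
Each point is an EST clone, with the DOX response of DKO-R cells in culture A on the horizontal and in culture B on the vertical axis, both as log2(+DOX/-DOX) averaged over the dye orientations. The red, orange and black points have the same sign on all 4 arrays and a mean of 1.5-fold or more (38 higher, 4 lower), and the open blue circles are the 45 annotated clones, most of which lie near 0 in culture A and below 0 in culture B.

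The cultures resembled each other only weakly. Over the 7751 clones, Pearson's r between culture A and culture B was 0.15 and Spearman's rho was 0.15, a description across clones measured on the same arrays, which are not independent replicates. The spread of the responses was wider in culture B than in culture A, with an SD of 0.31 against 0.22. Among the 100 highest clones of each culture, a list of 1.29% of the clones measured, 13 were shared, 13% of each list. The DT40subNB library supplied 11 of these 13, 35 of the list of culture A and 44 of that of culture B, against 15% of the clones measured. Among the 100 lowest of each culture 1 was shared, 1% of each list.

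The ratios varied more with the dye than with DOX. When the ratios of a culture were turned to +DOX over -DOX, both orientations had an r of -0.25 in culture A and 0.03 in culture B, whereas arrays of the same orientation in different cultures had an r of 0.37 with DOX in Cy3 and 0.23 with DOX in Cy5. Over the clones, the mean log2(Cy5/Cy3) of the 4 arrays had an SD of 0.25 and the mean DOX response an SD of 0.21. Averaging both orientations removes a dye effect only as far as it is equal on both arrays. The DKO-R arrays followed the dye ratio of the DT40 arrays to different degrees. The slope of each array on the mean log2(Cy5/Cy3) of the DT40 arrays was 0.54 and 0.47 in culture A, with DOX in Cy3 and in Cy5, and 0.63 and 0.16 in culture B.

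The highest clones with the same sign on all 4 arrays came mostly from 1 EST library. Of the 10 highest, 7 carry the prefix DT40subNB, a library that supplied 15% of the clones measured, 2 the prefix ChEST and 1 the prefix pgn1c, and no gene name was available for any of them. DT40subNB_1B1 had the highest mean, at 0.62 with DOX in Cy3 and 1.08 with DOX in Cy5 in culture A, and at 1.21 and 0.76 in culture B. Its cultures were at 0.85 and 0.98 and its mean was 0.92 ± 0.10 (SD of the cultures, n = 2), a 1.89-fold ratio with a standard error of 0.17. The adjusted p was 0.545 from limma. The same sign on all 4 arrays was a condition of this ranking, so it adds nothing to that test.

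DT40subNB_4H7 and DT40subNB_4A4 had the smallest p values of the response. DT40subNB_4H7 was at 0.94 and 0.84 in culture A and at 1.12 and 0.66 in culture B, with DOX in Cy3 and in Cy5. Its mean was 0.89 (95% confidence interval 0.61 to 1.17), with an unadjusted p of 8.41e-05 and an adjusted p of 0.368 from limma. DT40subNB_4A4 was at 0.72 and 0.85 in culture A and at 0.74 and 1.26 in culture B, with a mean of 0.89 (0.60 to 1.19), an unadjusted p of 0.000113 and the same adjusted p. These clones passed the threshold, with 4 others of the DT40subNB library, when the spread was taken from the DKO-R pairs alone, which leaves 1 residual degree of freedom (adjusted p of 0.0444 for both).

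The 4 others were DT40subNB_1B1, DT40subNB_18B2, DT40subNB_16H3 and DT40subNB_6C4. DT40subNB_18B2 was at 0.36 on the array of culture A with DOX in Cy3 and at 1.02 to 1.14 on the other 3 arrays. DT40subNB_16H3 was at 0.56 to 1.17 over the 4 arrays, with culture A at 0.66 and culture B at 1.14. DT40subNB_6C4 was at 0.54 and 0.84 in culture A and at 1.21 and 0.92 in culture B. In each of these 3 clones culture B was above culture A, with means over both cultures of 0.91, 0.90 and 0.88. DT40subNB_13C11 followed the same order at 0.84, with 0.64 in culture A and 1.05 in culture B.

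The remaining clones of the 10 highest divide by how evenly the cultures carried them. The clone pgn1c.pk003.k3 was at 0.71 in culture A and 0.88 in culture B, with a mean of 0.79, an unadjusted p of 0.000278 and an adjusted p of 0.527 from limma. ChEST299I6 was at 0.18 in culture A and 1.53 in culture B, and a single array, that of culture B with DOX in Cy5, stood at 2.09. ChEST995P5 was likewise at 0.28 and 1.34. The clone below the 10 highest, DT40subNB_9F2, had a mean of 0.77.

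**Figure D2:**
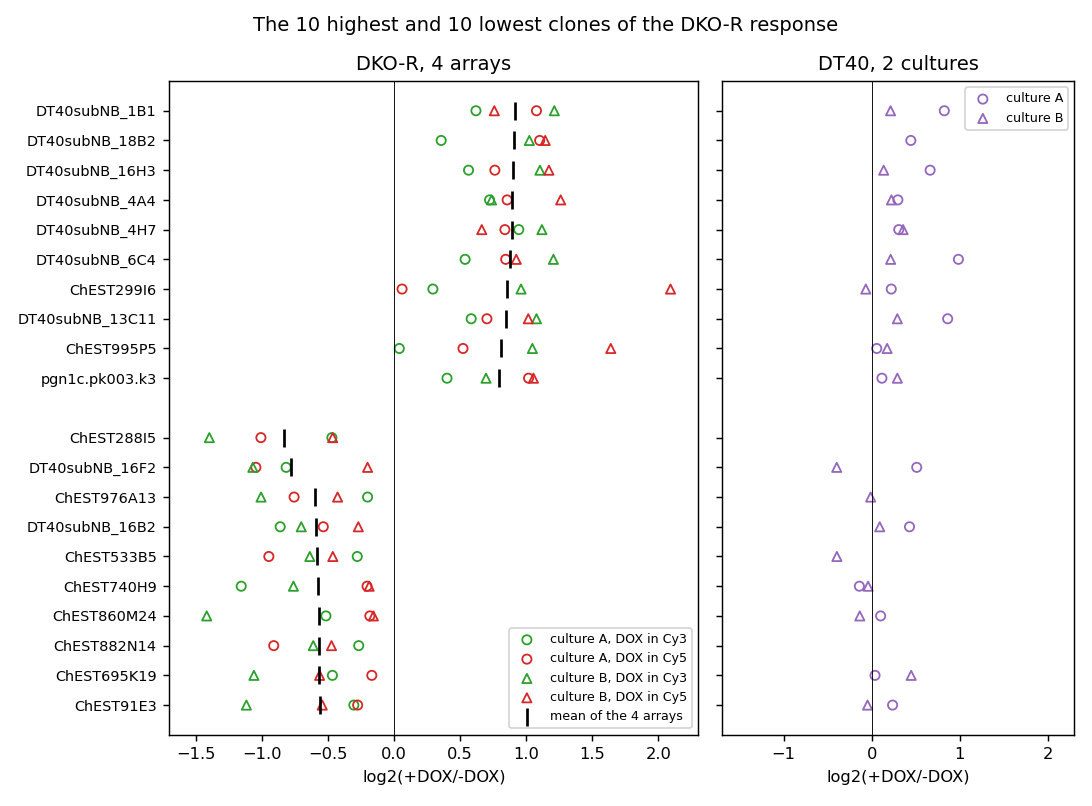
The 10 highest and the 10 lowest clones with the same sign on all 4 DKO-R arrays run down the page by mean, with log2(+DOX/-DOX) on the horizontal axis. Symbols in the left panel are the 4 DKO-R arrays by culture (circle or triangle) and by the dye of the DOX extract (green Cy3, red Cy5) with the mean as a bar, and the right panel gives DT40 cultures A and B with both orientations averaged, where 8 of the 10 highest clones are above 0 in both cultures.

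In DT40 cells, whose extracts and arrays are separate from those of DKO-R, the same clones also tended to lie above 0. Of the 10 highest clones 9 were measured in both DT40 cultures and 8 were above 0 in both, against 27.5% of the 6494 clones measured in both lines. DT40subNB_6C4 was at 0.98 and 0.21 in DT40 cultures A and B, DT40subNB_13C11 at 0.86 and 0.29, DT40subNB_1B1 at 0.82 and 0.21, and DT40subNB_16H3 at 0.66 and 0.14. DT40subNB_4H7 and DT40subNB_4A4 were closer between the DT40 cultures, at 0.31 and 0.35 and at 0.30 and 0.22. On the arrays labelled DKO-S culture B, both orientations averaged, DT40subNB_18B2 was at -1.46, DT40subNB_6C4 at -1.34, DT40subNB_16H3 at -1.20 and DT40subNB_13C11 at -0.68. However, 1 of these arrays kept 23.2% of its spots. Its Cy3 channel, which held the DOX extract, had a median intensity of 87.93, against 82.56 for blank spots. A lower signal with DOX cannot be told apart there from an effect of the weak channel. The others of the 10 highest had no value in DKO-S. The response of DKO-R minus that of DT40 was 0.40 for DT40subNB_1B1 (standard error 0.23, adjusted p = 0.857 from limma), 0.63 for DT40subNB_4A4 (standard error 0.18, adjusted p = 0.857) and 0.56 for DT40subNB_4H7 (standard error 0.17, adjusted p = 0.857).

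Over all 6494 clones tested for a difference between the responses of DKO-R and DT40, 0 were called (0%). The smallest adjusted p was 0.846, and 327 clones (5.04%) had an unadjusted p under 0.05. Against DKO-S, 0 of 165 clones were called (0%) and 9 had an unadjusted p under 0.05 (5.45%). The mean responses of DKO-R and DT40 had a Pearson's r of 0.12 and a Spearman's rho of 0.06 across the clones.

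The DT40subNB library as a whole had a higher median than the other libraries. Of its 1376 clones on the array 1162 were measured, with a median of 0.07, against 0.00 over all clones. The same sign on all 4 arrays was found for 171 of them with DOX higher (14.7%, against 7.91% of all clones) and for 62 with DOX lower (5.34%, against 6.59%). At an unadjusted p under 0.05, 103 of 1063 tested clones were higher (9.69%, against 4.95%) and 28 lower (2.63%, against 3.11%). The median was 0.04 in culture A and 0.09 in culture B, and 0.05 in DT40 cells. Medians of the other libraries were -0.02 for ChEST, 0.00 for dkfz426, 0.03 for pat and 0.02 for pgn1c. Same-sign clones were also more often higher than lower in dkfz426 (11.7% and 3.15%), pat (8.69% and 2.38%) and pgn1c (8.45% and 3.42%). In ChEST they were more often lower (5.98% higher, 8.05% lower). The DT40subNB library was singled out after its clones had been seen at the top, so that these counts are descriptions.

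Clones of the DT40subNB library were also brighter than the rest. Their median level on the DKO-R arrays was 11.92 on the log2 intensity scale, against 10.85 over all clones, and the clones were therefore divided by brightness into 4 bins, each of 25% of the clones. In the brightest bin, 119 of 601 DT40subNB clones were higher with DOX on all 4 arrays (19.8%), against 125 of 1337 clones of the other libraries (9.35%), while 3.16% and 3.52% were lower on all 4. In the next bin down the shares higher were 9.59% and 8.14%, and the shares lower 8.22% and 4.98%. In the dimmest bin 10.1% and 3.57% were higher, and 6.74% and 10.6% lower. In the other libraries the median ratio rose with brightness, from -0.062 in the dimmest bin to 0.035 in the brightest. Within the brightest bin the DT40subNB clones were still brighter, with a median level of 12.95 against 12.49. After loess, which removes a dependence of the ratio on brightness, the median of the DT40subNB library was 0.03. What the brightness of these clones contributes to their ratios was not tested further.

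**Figure D3:**
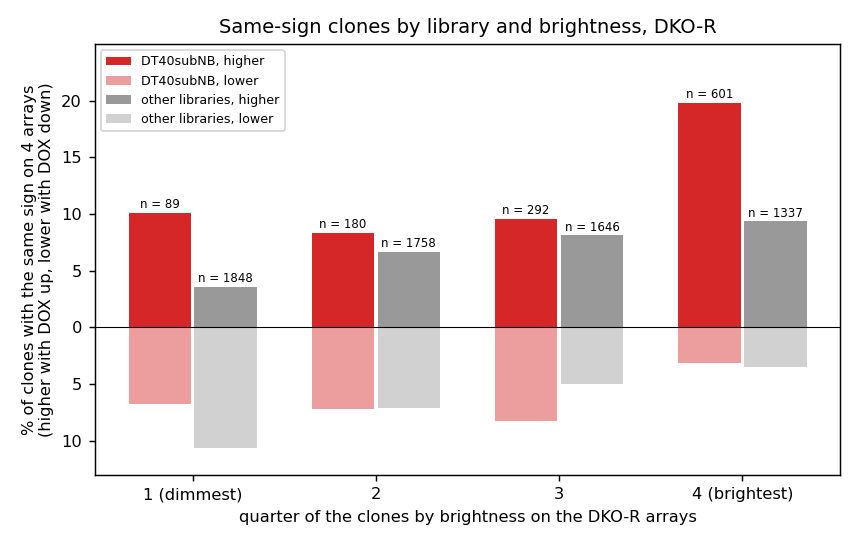
Bars give the share of clones with the same sign on all 4 DKO-R arrays, higher with DOX upwards and lower with DOX downwards, in 4 equal bins of the 7751 clones by brightness, for the DT40subNB library (red) and for all other libraries (grey). In the brightest bin 19.8% of the DT40subNB clones were higher on all 4 arrays, against 9.35% of the others. Within that bin the DT40subNB clones were still brighter, with a median level of 12.95 against 12.49.

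The 38 clones that were 1.5-fold or more higher with the same sign on all arrays were 0.49% of the clones measured and comprised 25 of the DT40subNB library, which supplied 15% of the clones measured, and 13 of other libraries. The 25 had a median of 0.68 and a range of 0.59 to 0.92, and 22 of them were higher in culture B than in culture A. After loess their median was 0.58, with a range of 0.44 to 0.93. In DT40 cells 19 of the 25 were measured on all 4 arrays, with a median of 0.39. Of these, 16 were above 0 in both cultures, against 27.5% of the 6494 clones measured in both lines. The 13 others had a median of 0.65 in DKO-R and, over the 12 measured, of 0.10 in DT40, with 6 above 0 in both cultures. The 3 exceptions in the first group were DT40subNB_13E3, at 0.19 and 1.06 in DKO-R cultures A and B but at -0.32 and -0.51 in DT40 cultures A and B, DT40subNB_2B12, at 1.05 and 0.25 in DKO-R and at -0.26 and 0.07 in DT40, and DT40subNB_16G10, at 0.41 and 0.92 in DKO-R and at -0.36 and 0.22 in DT40. In DKO-S culture B, with its weak array, 16 of the 25 were measured and 15 of these were below 0. Of the 13 others 6 were measured there and 5 were below 0. The share below 0 was 41.2% of the 3194 clones measured there. The 25 were bright, with a median level of 13.46 on the DKO-R arrays, against 10.85 over all clones. On the weak array the channel of the DOX extract was near the level of blank spots. Values below 0 of bright clones cannot be told apart there from an effect of the weak channel. The files do not say how many separate genes the 25 clones represent.

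Of the 12 others measured in both lines, ChEST332I11 and pat.pk0064.b4f were below 0 in both DT40 cultures. In DKO-R, ChEST332I11 was at 0.73 in culture A and 0.81 in culture B, averaging 0.77 (unadjusted p = 0.000324, adjusted p = 0.527 from limma). In DT40 it was at -0.19 and -0.40, and the difference of 1.06 between the lines (standard error 0.18) had an unadjusted p of 0.000376 and an adjusted p of 0.846. The clone pat.pk0064.b4f was at 1.01 and 0.28 in DKO-R and at -0.40 and -0.27 in DT40, with a difference of 0.98 and the same adjusted p.

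Fewer clones were lower with DOX by as much. The 4 that were 1.5-fold or more lower with the same sign on all arrays had a median of -0.69 and a median level of 10.56, close to the 10.85 of all clones, against 13.46 for the 25 DT40subNB clones and 11.56 for the 13 others that were higher. ChEST288I5 had the lowest mean at -0.83, with -0.47 and -1.01 in culture A and -1.40 and -0.47 in culture B, and it had no value in DT40. DT40subNB_16F2 was at -0.82 and -1.05 in culture A and at -1.07 and -0.20 in culture B and its response averaged -0.78 with an adjusted p of 0.594 from limma (standard error 0.21).

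DT40subNB_16B2 was at -0.86 and -0.54 in culture A and at -0.70 and -0.27 in culture B, with a mean of -0.59. It was at 0.43 and 0.09 in DT40 cultures A and B, and the difference of -0.85 between the lines (standard error 0.20) had an adjusted p of 0.846, which it shared with ChEST332I11. The others of the 10 lowest were ChEST clones with means of -0.60 to -0.56, of which ChEST740H9 was at -0.68 and -0.47 in cultures A and B (adjusted p = 0.594 from limma). Of the 10 lowest clones 6 were measured in both DT40 cultures and 1 was below 0 in both, against 24.8% of all clones.

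Gene names were available for 42 of the 47 clones that the study annotated. It had chosen the 47 for a difference between DKO-R and DKO-S in this series. Which arrays entered that choice is not stated, so their counts are not independent of it. Of the 47 clones, 45 were measured on the 4 DKO-R arrays and 44 tested, of which 0 were called. Their median was -0.43, against 0.00 over all clones, and 42 were below 0. An unadjusted p under 0.05 was found for 18 lower (40.9%, against 3.11% of all clones) and 2 higher (4.55%, against 4.95%). The median was 0.00 in culture A and -0.83 in culture B, where 22 and 42 of the 45 were below 0. In DT40 cells it was -0.21 over 44 clones.

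The sign of these values mostly went with the dye. In 32 of the 45 clones (71.1%, against 10.5% of all clones) log2(Cy5/Cy3) was above 0 on all 4 DKO-R arrays, whichever extract carried Cy5. These ratios were centred on the median of each array, which was -0.261 to -1.985 before centring. A value of 0 is therefore not equal signal in both dyes. The median log2(Cy5/Cy3) of the 45 was 1.12 with DOX in Cy3 and 1.20 with DOX in Cy5 in culture A, and 1.79 and 0.21 in culture B. On the array of culture B with DOX in Cy5, 0 of the 45 clones had a centred Cy5/Cy3 ratio of 2-fold or more, against 29 to 34 on the others. Within culture B, a dye effect that differs between the arrays cannot be told apart from a lower signal with DOX. On the DT40 arrays, the median log2(Cy5/Cy3) of the annotated clones was 0.86 to 1.54. Subtracting the DT40 dye effect, scaled by a single slope per array over all clones, gave the annotated clones a median of -0.31. The slopes were 0.16 to 0.63, and the correction was chosen after the values were seen. Whether it removes the dye effect of these clones was not tested. Among the 100 lowest clones 26 of culture B and 0 of culture A were annotated ones.

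**Figure D4:**
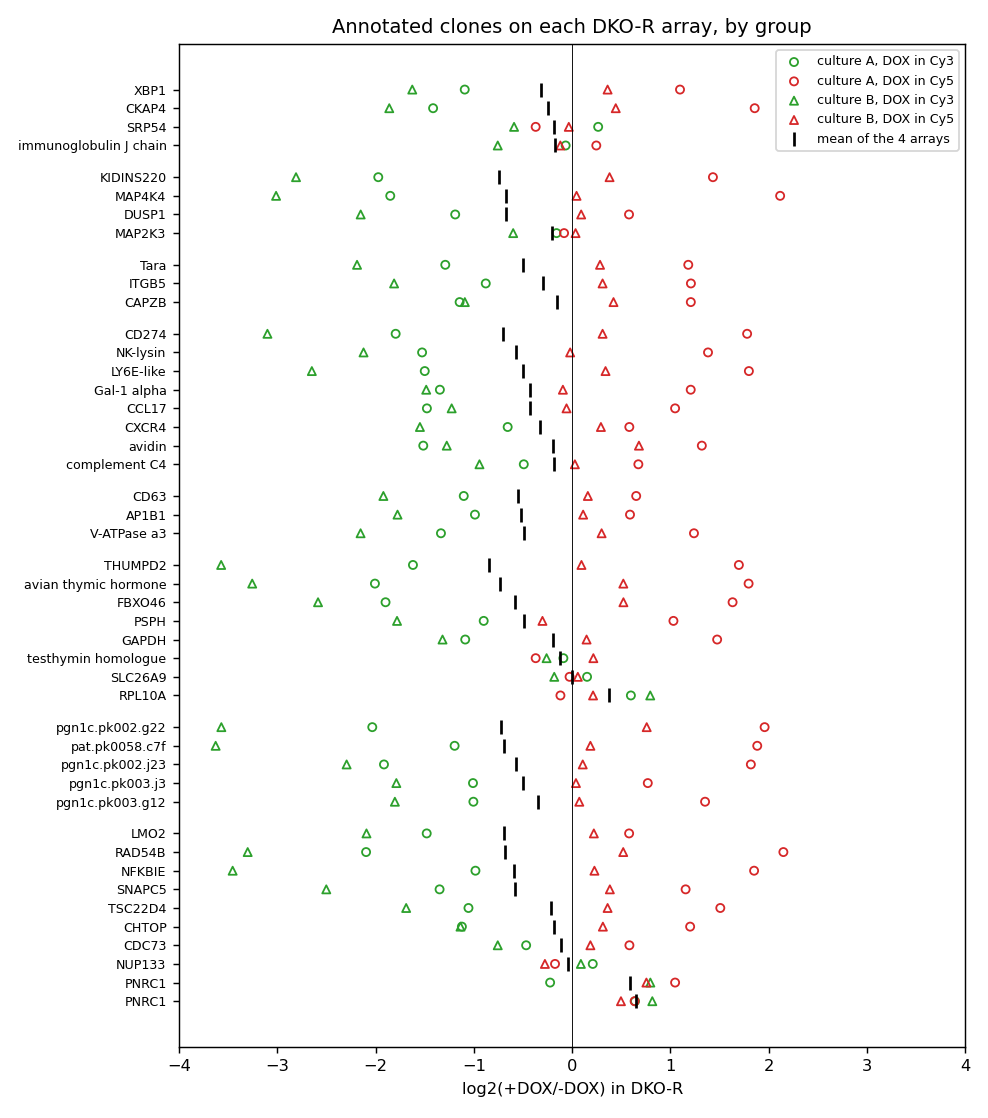
The 45 annotated clones are ordered by group and mean, with log2(+DOX/-DOX) in DKO-R on the horizontal axis, 1 symbol for each of the 4 arrays and a bar for the mean. Most clones are below 0 where the DOX extract was labelled with Cy3 (green) and above 0 where it was labelled with Cy5 (red), whereas a PNRC1 clone is above 0 on all 4 arrays.

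Transcription and nuclear proteins were the largest group, with 10 clones measured and a median of -0.20. At an unadjusted p under 0.05, 3 of them were lower and 1 higher (30% and 10%, against 3.11% and 4.95% of all clones). Of all annotated clones 40.9% were lower and 4.55% higher. For the group of nuclear proteins the cultures differed. The median was 0.05 in culture A and -0.54 in culture B, and -0.10 in DT40. PNRC1, a proline-rich coactivator of nuclear receptors, was an exception among the annotated genes and is printed as a pair of clones. ChEST358J1 was at 0.64 and 0.64 in culture A and at 0.82 and 0.50 in culture B, with DOX in Cy3 and in Cy5. It was the only annotated clone with the same sign on all 4 arrays, and its cultures were at 0.64 and 0.65, a ratio of 1.56-fold. Its standard error of 0.52 draws on both DKO-S pairs with their weak arrays (adjusted p = 0.760 from limma, 0.331 without the DKO-S pairs).

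The second PNRC1 clone, pat.pk0061.e6f, was at -0.22 and 1.05 in culture A and at 0.80 and 0.75 in culture B. Its mean was 0.59, with a 95% confidence interval of 0.19 to 1.00, an unadjusted p of 0.00937 and an adjusted p of 0.594 from limma. In DT40 cultures A and B, ChEST358J1 was at 0.26 and 0.40 and pat.pk0061.e6f at 0.01 and 0.62. The response of DKO-R minus that of DT40 was 0.32 (standard error 0.74) and 0.28 (standard error 0.25), with adjusted p values of 0.951 and 0.886. Both clones thus gave a DKO-R mean near 1.5-fold that was not distinguished from 0 after adjustment, nor from the DT40 response.

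The other nuclear genes were at or below 0. LMO2, a LIM-domain partner of haematopoietic transcription factors, was at -1.48 and 0.58 in culture A and at -2.09 and 0.22 in culture B (mean -0.69, standard error 0.22, adjusted p = 0.594 from limma). NFKBIE, an inhibitor of NF-κB, was at -0.98 and 1.85 in culture A and at -3.46 and 0.23 in culture B, so that its cultures had opposite signs at 0.43 and -1.61. RAD54B, a protein of homologous recombination, had cultures at 0.03 and -1.39. NUP133, a nuclear pore protein, had a mean of -0.04, and CDC73, a subunit of the Paf1 complex, of -0.12.

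All 4 signalling clones had a mean below 0, with a median of -0.67. At an unadjusted p under 0.05 there were 2 (50%, against 3.11% of all clones lower and 40.9% of the annotated ones). Their median was -0.20 in culture A, where MAP4K4 was above 0 at 0.13, and -1.12 in culture B. The kinase MAP4K4 was at -1.85 and 2.12 in culture A and at -3.01 and 0.04 in culture B. DUSP1, a phosphatase that inactivates MAP kinases, was at -1.19 and 0.58 in culture A and at -2.15 and 0.09 in culture B (mean -0.67, standard error 0.21, adjusted p = 0.594 from limma). KIDINS220, a membrane scaffold of neurotrophin signalling, had a mean of -0.74. MAP2K3, which activates p38, had a weak dye effect and values of -0.16 and -0.08 in culture A and -0.60 and 0.03 in culture B, averaging -0.20 (adjusted p = 0.688 from limma).

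Among the chemokine, immune and defence genes all 8 had a mean below 0, with a median of -0.43. At an unadjusted p under 0.05 there were 4 (50%, against 3.11% of all clones lower and 40.9% of the annotated ones). That median rests on culture B, at -0.72, whereas it was -0.05 in culture A. CXCR4, the receptor of the chemokine CXCL12, was at -0.66 and 0.58 in culture A and at -1.55 and 0.29 in culture B. Its mean was -0.33 ± 0.42 (SD of the cultures, n = 2; standard error 0.16, adjusted p = 0.626 from limma), and the difference from DT40 was -0.45 (standard error 0.23, adjusted p = 0.857). The chemokine CCL17 had a mean of -0.43, the T-cell inhibitory ligand CD274 of -0.70 and the antimicrobial peptide NK-lysin of -0.57. These groups had negative medians in DT40 as well, -0.42 for the 8 immune genes and -0.12 for the 4 signalling genes.

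The endosomal and lysosomal group is the one closest to clathrin itself. AP1B1, the large β subunit of the AP-1 clathrin adaptor, was at -0.99 and 0.59 in culture A and at -1.78 and 0.11 in culture B. Its mean was -0.52 (standard error 0.18, adjusted p = 0.594 from limma), against 0.12 and 0.04 in DT40 cultures A and B, and the difference of -0.60 between the lines had an unadjusted p of 0.0483 and an adjusted p of 0.857. CD63, a tetraspanin of late endosomes and lysosomes, had a mean of -0.55, and the a3 subunit of the proton-pumping V-ATPase of -0.49. In DT40 the means of CD63 and the a3 subunit were -0.33 and -0.50, and the median of the group was -0.33. In DKO-R all 3 clones had an unadjusted p under 0.05 as lower, against 3.11% of all clones and 40.9% of the annotated ones. Their median was -0.20 in culture A and -0.88 in culture B. CHMP7, an ESCRT-III related protein, was not measured on enough arrays.

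The secretory and endoplasmic reticulum genes of B cells had a median of -0.21 over 4 clones, 3 of which were tested, with 0 at an unadjusted p under 0.05 by limma. Their median was 0.05 in culture A and -0.54 in culture B, and -0.31 in DT40 over 3 clones. XBP1, a transcription factor of the unfolded protein response, had cultures at 0.00 and -0.63, and immunoglobulin J chain, the joining peptide of secreted antibodies, at 0.09 and -0.44. SRP54 of the signal recognition particle had a mean of -0.18. DDIT3, a transcription factor of the endoplasmic reticulum stress response, was not measured on enough arrays. The 3 adhesion and actin clones, integrin β5 (ITGB5), the actin-capping subunit CAPZB and the actin-binding protein Tara, had means of -0.29, -0.15 and -0.51, with medians of 0.03 in culture A and -0.75 in culture B. In DT40 the median of these 3 was -0.02.

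The remaining named genes were of metabolism and mixed function, with 8 clones and a median of -0.34, which was 0.05 in culture A and -0.81 in culture B. Of the 8, 3 were lower and 1 higher at an unadjusted p under 0.05 (37.5% and 12.5%, against 3.11% and 4.95% of all clones). Of all annotated clones 40.9% were lower and 4.55% higher. RPL10A, a protein of the large ribosomal subunit, was above 0 in both cultures at 0.24 and 0.50 and on 3 of the 4 arrays, with a mean of 0.37 (0.07 to 0.67), an unadjusted p of 0.0223 and an adjusted p of 0.594 from limma. Unlike most annotated clones, RPL10A had a mean centred log2(Cy5/Cy3) below 0, at -0.325. The anion transporter SLC26A9 had a mean of 0.00, and the glycolytic enzyme GAPDH of -0.20 with cultures at 0.19 and -0.59. THUMPD2, a THUMP-domain protein, had the lowest mean of the annotated clones, -0.85, from 0.04 in culture A and -1.74 in culture B. Its mean in DT40 was -0.83, where the median of the 8 clones was -0.30. The 5 clones without a gene name had a median of -0.57, with -0.04 in culture A and -1.09 in culture B, and of -0.21 in DT40.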

How the data were processed

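RNA of each pair of extracts was hybridised to EST arrays, and per the file headers the authors deposited the intensity of each spot in both channels from BlueFuse, without normalisation, with the spot confidence as a fraction. A deposited table of log2(Cy5/Cy3) per clone, fused by the authors, served as an alternative only; its positions were matched to clones by print position (r of 0.94 to 0.98 with the spot values on each array). The labels give Cy3 for channel 1 and Cy5 for channel 2.

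Spots with a confidence of 0.30 or more were kept, log2 ratios were centred on the array median, spots of a clone were averaged, and both orientations of a pair were turned and averaged. limma 3.58.1 in R 4.3.3 fitted 4 comparison means to 7 pairs, requiring 2 residual degrees of freedom, with Benjamini-Hochberg adjustment over all clones at 0.05. The ratio itself pairs the extracts of a culture. The array number limits the precision. The fit was tested on simulated data that had no dye effect and the same spread for all pairs of a clone. Levels are log2 intensities, from the centred ratio and the quantile-normalised mean of both channels. Alternatives changed the normalisation, the confidence filter, the averaging of spots, the arrays entering the fit and the model. Gene names came only from the study's annotation. Clones named are the 47 annotated ones and the 10 highest and 10 lowest means with the same sign on all 4 arrays; DT40subNB_9F2, DT40subNB_13E3, DT40subNB_2B12, DT40subNB_16G10, ChEST332I11 and pat.pk0064.b4f were named after their values were seen. The members and lists were chosen with earlier results of these data known. Genes were grouped here by function.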

Additional observations from a re-analysis of the deposited data

Results flagged for a closer look

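Of the 65 named clones with values on all 4 DKO-R arrays, 1 had an array far from the others by Dixon's criterion. The chance rate of about 1 in 20 groups holds for values of a like kind. It cannot be applied here, because the arrays differ in culture and dye. DT40subNB_18B2 was at 0.36 on the array of culture A with DOX in Cy3 and at 1.02 to 1.14 on the other arrays.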

How the results depend on the processing

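The count of clones called in the DKO-R response was 0 with all alternatives except 2. With the spread taken from the DKO-R pairs alone it was 6, all higher and all of the DT40subNB library. With single arrays and a dye term it was 2, DT40subNB_4A4 and DT40subNB_4H7. That model used a within-pair correlation of 0.096, so both arrays of the same extracts counted as nearly independent. The fit without the pairing (separate channels, no replicate block) called 0 clones, with 74 at an unadjusted p under 0.05. Without culture A of DKO-R 0 clones were called, with 880 at an unadjusted p under 0.05, and without culture B 0, with 335. The adjusted threshold of 0.15 called 0 in the main fit. An alternative in which the dye effect of DT40 was scaled by a single slope per array and subtracted, chosen after seeing the data, called 0. No alternative that gave a value called a clone in the difference between DKO-R and DT40 or DKO-S. Clones of 2-fold or more with the same sign on all DKO-R arrays numbered 0, but 1 without the confidence filter, 5 in the deposited table, and 8 to 39 with a single culture (39 in culture B). The 10 highest and 10 lowest clones kept their direction in all settings that gave them a value. They had been chosen for the same sign on all DKO-R arrays, so that leaving out a culture could not reverse them. Leaving DKO-S or DT40 pairs out of the fit, or adding a dye term, left their means unchanged. Only settings that changed the array values could have reversed their direction. Of the 45 annotated clones, which were not chosen in that way, 23 kept their direction, so that these counts cannot be compared. The median of the annotated clones was -0.83 without culture A and 0.00 without culture B. A fit with a single DKO-R culture assumes that it varies like the other pairs. For 5105 clones at least 1 DKO-R array gave no value, so that they were not described.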
